A study of Mus musculus with 39 samples.

Results

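KAL-1 is an aqueous ethno-botanical formulation, and the 10 arrays described here compare its highest dose, 75 µg given with a high fat diet (HF75), with the same diet alone (HFC). The tissue is epididymal adipose, from mice of the strain C57BL/6J. The members are the 5 HF75 and 5 HFC arrays of weeks 3, 6, 9, 15 and 18 among the 39 arrays of the series. They were chosen by diet and week, except that week 12 was left out for the signals of its HFC array. Weaned mice of 3 to 4 weeks of age were assigned to diets in groups of 30. HFC mice ate a high fat, high sucrose diet with 60% of calories from fat, and HF75 mice ate that diet with 75 µg of KAL-1 added. The low fat control diet (LFC) had 10% of calories from fat, and the other doses (HF5 and HF20) were 5 and 20 µg on the high fat diet. At intervals of 3 weeks 5 mice per group were killed, and tissues were frozen in liquid nitrogen before RNA extraction. There was 1 one-colour array per diet and week. Whether that array holds RNA of 1 mouse or of a pool is not given in the labels, so the weeks served as the replicates and the arrays of a week as the pair. The week 12 pair was left out because the HFC array of that week has raised signals for dim probes.

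Epididymal fat is a visceral depot of the male mouse that stores triglyceride, secretes hormones such as leptin and adiponectin, and holds macrophages, lymphocytes, vessels and a mesothelial covering beside its adipocytes. On a high fat diet this depot enlarges, and transcripts such as Lep, Mest and Sfrp5 are known to follow the size of the fat cells and the growth of the pad, while recruited macrophages produce chemokines and cytokines. The question of the comparison is which of these programs differ when KAL-1 is given with the diet.

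Levels below are log2 processed signals minus the 75th percentile of the array, so 0 is the signal of a probe at that percentile, and differences are HF75 minus HFC on the same log2 scale. Between 61.05% and 77.2% of probes were well above background on the 10 arrays, and the week 15 pair differed most, with 63.5% on HF75 and 77.2% on HFC. The HFC week 12 array, for comparison, had 94.5% and 10531 outlier spots against 21 to 188 on the 10 arrays used. The processed signals of the week 9 pair were whole numbers for 40.5% (HF75) and 45.7% (HFC) of spots, against at most 0.1% on the other 8 arrays. All 10 adipocyte markers were well above background on each of the 10 arrays, with summed levels of 212 to 562 on HF75 and 208 to 571 on HFC, where 1 is the signal at the 75th percentile.

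The HFC week 3 array stands apart from the other HFC arrays in its immediate early genes, which cells switch on within minutes of a stimulus. The median level of this list was 2.43 there and 4.80 on the HF75 array of the same week. Over the 30 arrays of weeks 3 to 18 in all 5 diets, 7 arrays lay between -0.55 and 2.43 and the other 23 between 4.23 and 5.37. The 7 were HFC week 3, HF75 week 12, HF20 weeks 6, 12 and 18, and LFC weeks 3 and 12. Values for the chemokine, inflammatory and immediate early genes are therefore given with and without that pair. The same is done for several lists that moved at week 3.

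**Figure D1:**
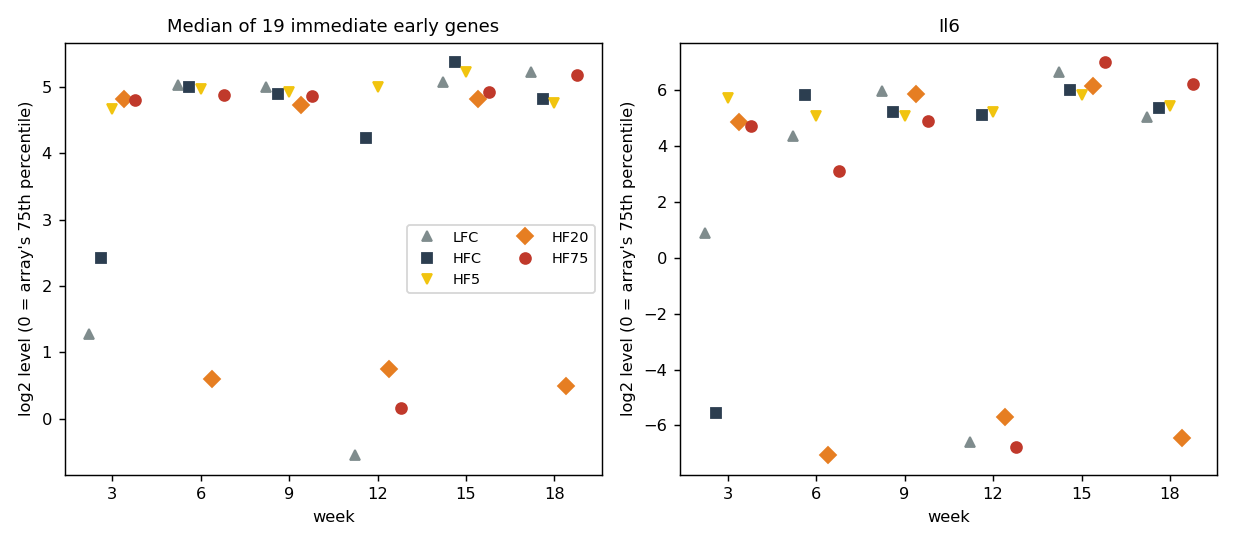
Left, median log2 level (75th percentile of the array = 0) of the immediate early genes on each array by week, 1 point per array and diet. Right, the level of the inflammatory gene Il6 on the same arrays. In the left panel the HFC array of week 3 sits at 2.43 and the HF75 array of that week at 4.80.

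No probe passed the test. Of 27464 probes tested by limma with week as a block, 0 (0%) reached an adjusted p under 0.05 after Benjamini-Hochberg adjustment, and the smallest adjusted p was 1. At an unadjusted limma p under 0.05 there were 551 probes, 188 higher on HF75 (0.685%) and 363 lower (1.32%). HF75 was above HFC in 5 of 5 pairs at 505 probes (1.84%) and below in 5 of 5 at 491 probes (1.79%). The levels of the diets did not overlap at 3 probes that were higher (0.0109%) and 15 that were lower on HF75 (0.0546%). All genes named below have an adjusted limma p of 1 in this comparison, so their values describe these arrays and no gene is called changed.

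The pairs differed in size from week to week. At week 3, 16.6% of probes were at least 2-fold above HFC and 8.33% at least 2-fold below. At week 6 the shares were 6.23% above and 10.6% below, and at week 9 they were 10.9% above and 6.04% below. Week 15 had the largest share below of the 5 weeks, 24.6%, with 13.5% above, and week 18 had 5.12% above and 13.9% below. Differences of one week were only weakly related to those of another, with Spearman coefficients across probes of -0.241 to 0.166 (genes are not independent replicates).

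Leptin, the hormone by which fat cells report stored fat to the brain, was the adipokine with the smallest p. Lep was 1.74, -4.16, 0.03, -1.70 and 0.42 on the HF75 arrays of weeks 3, 6, 9, 15 and 18 and 3.06, -1.99, 0.50, -0.37 and 2.004 on the HFC arrays. HF75 was the lower array of every pair, although the diets overlapped since the level varied more between weeks than between diets. The mean difference was -1.37 ± 0.30 (SE, 5 pairs, limma p = 0.00223). Leaving out each week in turn gave -1.60 to -1.17. Adiponectin, the other main adipocyte hormone, did not follow it: Adipoq was 6.52, 2.79, 5.32, 4.08 and 6.63 on HF75 and 6.15, 4.36, 4.88, 3.97 and 6.57 on HFC, and the difference was -0.12 (limma p = 0.753). Lep was the only one of 10 adipokines with an unadjusted p under 0.05, and the median difference of the list was -0.10 against -0.02 over all probes tested.

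The promoter of Lep on GRCm38.p6 (RefSeq), chr6:29059971-29060270 on the + strand, is shown beside those of Rsad2 (chr12:26456403-26456702, - strand) and Cxcl2 (chr5:90903649-90903948, + strand), the genes with which the accounts of adipokines, interferon genes and chemokines open or turn. Each runs from 250 bases before the start of the gene to 50 after it, and capitals mark matches, on either strand, to 1 motif per gene: TTNNGCAA, bound by C/EBP factors of adipocytes, for Lep; GAAANNGAAA, a repeat found in interferon response elements, for Rsad2; and GGGNNTTTCC, a form of the NF-kB site, for Cxcl2.
Lep: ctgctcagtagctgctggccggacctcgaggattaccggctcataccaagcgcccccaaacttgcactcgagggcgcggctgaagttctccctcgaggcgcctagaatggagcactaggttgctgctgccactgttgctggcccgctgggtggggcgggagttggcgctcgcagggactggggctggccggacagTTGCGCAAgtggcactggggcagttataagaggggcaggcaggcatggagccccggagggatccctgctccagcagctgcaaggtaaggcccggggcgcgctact
Rsad2: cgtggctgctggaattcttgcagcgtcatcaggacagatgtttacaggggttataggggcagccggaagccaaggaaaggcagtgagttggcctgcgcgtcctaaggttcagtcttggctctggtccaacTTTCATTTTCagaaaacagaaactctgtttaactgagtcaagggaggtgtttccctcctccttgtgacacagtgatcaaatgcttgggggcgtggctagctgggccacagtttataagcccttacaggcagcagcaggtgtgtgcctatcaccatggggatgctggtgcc
Cxcl2: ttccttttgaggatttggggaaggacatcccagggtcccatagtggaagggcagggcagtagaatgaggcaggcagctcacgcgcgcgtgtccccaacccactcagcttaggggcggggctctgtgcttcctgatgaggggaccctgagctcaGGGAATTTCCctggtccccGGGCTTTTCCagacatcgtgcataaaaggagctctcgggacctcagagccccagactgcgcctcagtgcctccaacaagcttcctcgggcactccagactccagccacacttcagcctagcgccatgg
The Lep match, TTGCGCAA, lies 55 to 48 bases before the start. The Rsad2 match, TTTCATTTTC, lies 120 to 111 bases before it on the opposite strand, and the Cxcl2 matches, GGGAATTTCC and GGGCTTTTCC, lie 97 to 88 and 78 to 69 bases before it. Of 32851 promoters of the same length, 10.8% hold the Lep motif, 3.44% the Rsad2 motif and 1.63% the Cxcl2 motif, so a match describes the sequence and is no evidence of binding.

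Of 5 genes that mark fat pad expansion, 4 had an unadjusted p under 0.05, all lower on HF75, against 1.32% of all probes. The list's median difference was -0.84. Lists were chosen with earlier results known and their genes are not independent, so such shares stand side by side only. Sfrp5, a secreted Wnt inhibitor of enlarging fat cells, was -4.42, -3.80, -5.37, -6.57 and -5.01 on HF75 and -3.87, -2.12, -4.37, -4.21 and -2.79 on HFC. It was the lower array in every pair, by -1.56 ± 0.34 (SE, limma p = 0.00218), but it was well above background on only 2 of 5 HF75 arrays. Mest, an imprinted gene of growing adipocytes, was 3.79, -0.19, 2.18, 2.41 and 1.89 on HF75 and 5.18, 0.86, 2.71, 2.24 and 3.32 on HFC, lower in 4 of 5 pairs with a difference of -0.84 ± 0.31 (limma p = 0.0294). Nnat (neuronatin, an imprinted membrane protein) was 1.98, -2.65, -1.33, -1.42 and 0.34 on HF75 and 3.64, -1.47, -0.16, -1.01 and 0.32 on HFC, and the difference was -0.88 ± 0.31 (limma p = 0.0245). Bmp3, a ligand of the TGF-beta family, was lower in 4 of 5 pairs by -0.69 ± 0.29 (limma p = 0.0488). The exception was Npr3, the clearance receptor of natriuretic peptides, at 0.02 ± 0.28 (limma p = 0.946). The list median was negative under all 17 alternative settings, from -0.999 to -0.656. Without week 3 it was -0.69, and 1 of the 5 had an unadjusted p under 0.05, lower on HF75, against 643 of 27454 probes. In bulk tissue, fewer cells of a type and less RNA per cell cannot be told apart.

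**Figure D2:**
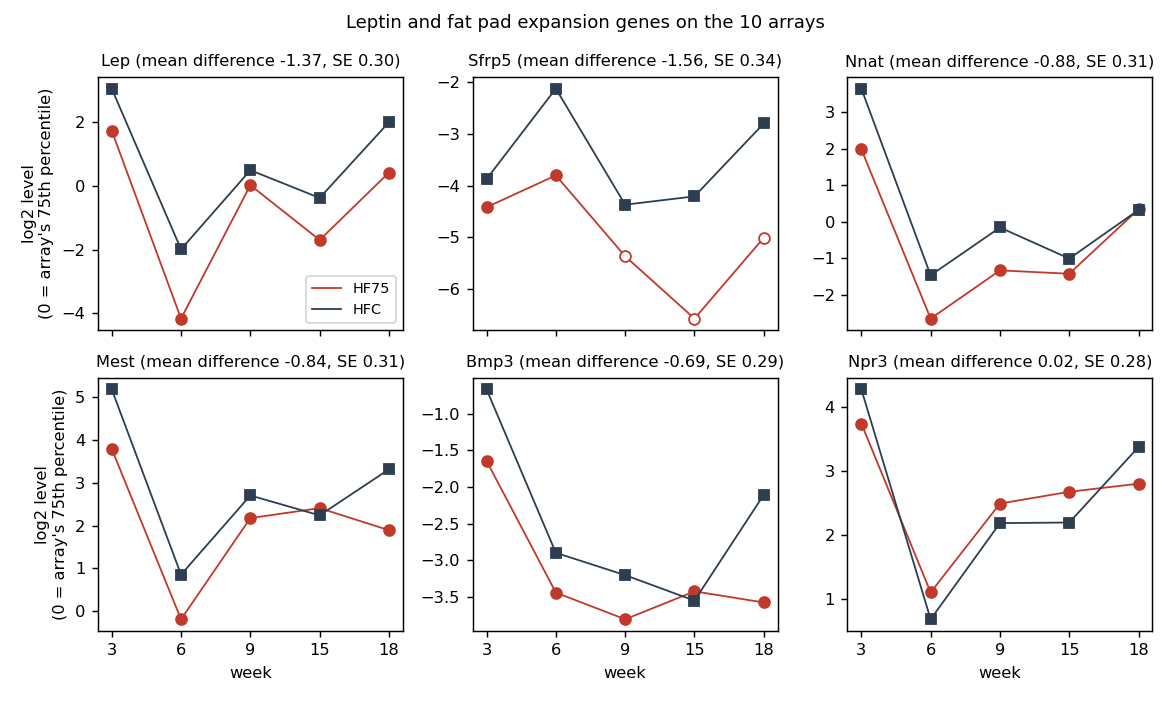
Log2 levels (75th percentile of the array = 0) of Lep and the fat pad expansion genes by week on HF75 and HFC, 1 point per array, with lines joining the arrays of a diet. HF75 lies below HFC at all 5 weeks for Lep and Sfrp5, and Npr3 shows no steady order.

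The smallest p of the named genes lower on HF75 belonged to Ncan, a chondroitin sulphate proteoglycan of nerve tissue. Ncan was -0.97, -5.43, -4.34, -5.46 and -3.87 on HF75 and 1.99, -3.74, -2.61, -3.83 and -1.51 on HFC, and its difference of -2.07 ± 0.29 (SE, limma p = 0.000152) ran from -2.96 at week 3 to -1.62 at week 15. Krt14, a keratin of stratified epithelium, separated the diets without overlap: it was -4.19, -5.93, -2.58, -3.60 and -3.86 on HF75 and -2.46, -2.29, -1.68, -2.11 and -2.49 on HFC, a difference of -1.83 ± 0.41 (limma p = 0.00274). Ckmt1, a mitochondrial creatine kinase, also separated them, with -5.75, -4.60, -3.74, -4.87 and -4.17 on HF75 and -3.36, -3.28, -2.89, -3.41 and -3.66 on HFC, and a difference of -1.31 ± 0.32 (limma p = 0.00444). Both belong to the 0.0546% of probes that were lower without overlap.

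Myom2, a protein of the sarcomere M band, was -4.81, -5.91, -3.92, -3.72 and -5.35 on HF75 and -1.84, -1.98, -1.33, -3.15 and -4.61 on HFC. The differences were -2.96, -3.93 and -2.60 at weeks 3, 6 and 9 and only -0.57 and -0.74 at weeks 15 and 18, and the mean difference was -2.16 ± 0.53 (limma p = 0.00418). Of 11 muscle markers tested 8 were lower on HF75 on average, with a median of -0.86 and a summed level of 1.58 to 7.56 on HF75 and 1.64 to 23.4 on HFC. Their medians by week were -0.73, -2.57, -0.18, -0.90 and -0.20, so they were lowest at week 6, as Myom2 was, but close to 0 at week 9, where Myom2 was at -2.60. Over the 7 markers that were well above background on all 10 arrays the median was -0.09, with 3 of them higher. Ckm, the creatine kinase of skeletal muscle, was well above background on 5 of 5 HFC arrays and on none of the HF75 arrays, and it was at least 2.28-fold lower on HF75 (adjusted limma p = 1). This was not particular to HF75. At the same weeks Ckm was well above background on no HF5 array, on HF20 only at weeks 15 and 18, and on LFC only at weeks 3 and 6. The part of muscle tissue in the Myom2 value was not tested. Esyt3 and Pkhd1l1, measured on 4 of 5 HFC arrays and no HF75 array, were at least 2.18-fold and 1.80-fold lower and were not tested. In all, 22 probes were measured on at least 4 of 5 HFC arrays and on no HF75 array, 21 of them with a bound above 1-fold, and no probe was found the other way round. More probes were well above background on HFC than on HF75 at week 15 (77.2% and 63.5%) and week 18 (69.3% and 61.6%), and the part of this in the count was not tested.

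The other named genes that were lower in 5 of 5 pairs were Fxyd6, a regulator of the sodium pump (-1.66 ± 0.39, limma p = 0.00347), Spc24, a kinetochore protein (-1.08 ± 0.24, limma p = 0.00262), and Ms4a4b, a membrane protein of T cells (-1.05 ± 0.25, limma p = 0.00338). Of 8 T cell markers tested, 7 were lower on HF75, with a median of -0.69, and Cd3g, a chain of the T cell receptor complex, was lower by -1.02 (limma p = 0.0387). The T cell list median was -2.30 at week 15 but 1.22 at week 3, and without week 3 it was -1.14.

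Among genes that were higher on HF75, Phxr5 had the smallest p. It was 0.75, 2.15, 1.80, 2.61 and 1.34 on HF75 and -0.40, 0.44, 0.54, 1.78 and 0.54 on HFC, higher in every pair by 1.15 ± 0.25 on average (SE, limma p = 0.00235). Rsad2 (viperin), an antiviral protein induced by interferon, was 2.39, 2.06, 4.68, 4.58 and 3.85 on HF75 and 0.97, 1.56, 3.37, 3.21 and 2.94 on HFC. Its difference was 1.104 ± 0.26 (limma p = 0.00314). A further interferon gene, Ifit2, was -0.74, -0.45, 1.52, 0.21 and 0.02 on HF75 and -1.17, -1.20, 0.13, -0.52 and -0.54 on HFC, a difference of 0.77 ± 0.25 (limma p = 0.0175). These were the only members of 16 interferon stimulated genes with an unadjusted p under 0.05, against 0.685% of all probes that were higher at that threshold. The list median was 0.19, with 10 higher and 6 lower, and it was lowest at week 3 (-0.43). In 5 of 5 pairs 2 of 16 were higher, against 1.84% of all probes. Without week 3 the median was 0.28 and 6 of 16 (37.5%) were higher in 4 of 4 pairs, against 5.96% of all probes. With week 12 added it was -0.15.

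Acod1, the enzyme by which activated macrophages make itaconate, was -4.42, -1.94, -2.40, -2.57 and -2.41 on HF75 and -8.47, -3.86, -2.59, -3.66 and -4.40 on HFC. The difference was 1.85 ± 0.52 (limma p = 0.00864), with the widest gap at week 3. Pon1, an esterase carried on high density lipoprotein, was -0.54, -3.83, -2.21, -3.72 and -0.89 on HF75 and -0.58, -4.61, -6.53, -5.65 and -3.19 on HFC, so the diets were level at week 3 and furthest apart at week 9. Its mean difference was 1.88 ± 0.58 (limma p = 0.0137). The remaining named genes higher in 5 of 5 pairs were Fam110c (1.04 ± 0.26), Tmem171 (1.00 ± 0.28), Pde6h, a subunit of the cone phosphodiesterase (0.98 ± 0.29), and Cmtm8 (0.85 ± 0.26), with limma p of 0.00427 to 0.0129. Pde6h was the one of these whose sign turned under an alternative, to -0.05 with normexp background, where the median of all probes was also -0.17.

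**Figure D3:**
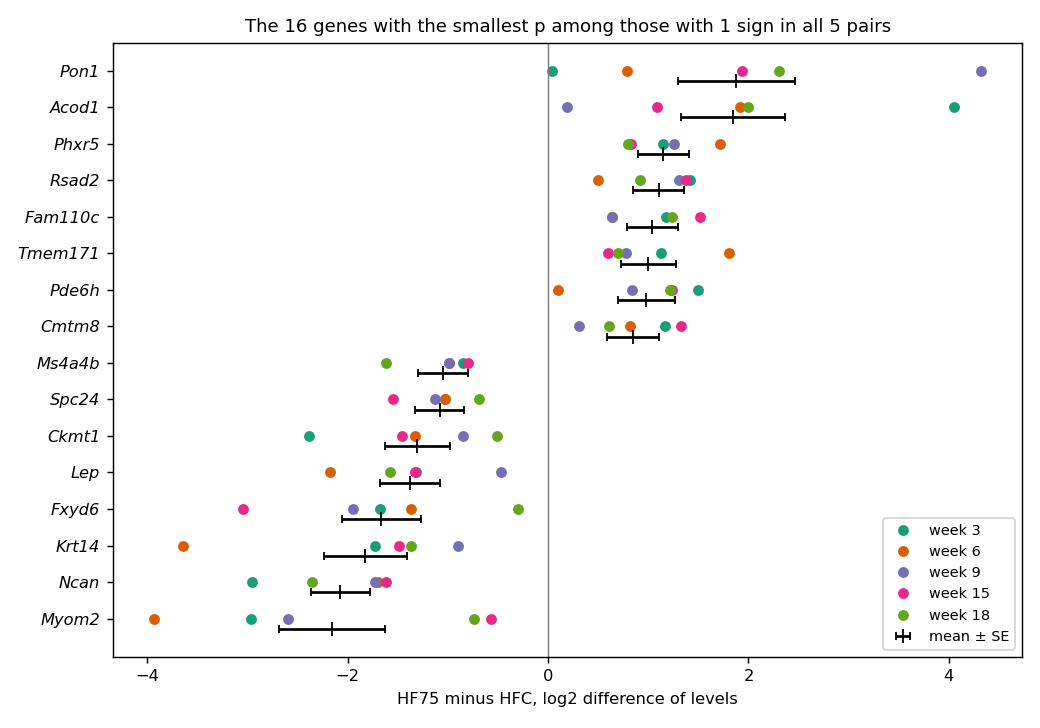
Difference HF75 minus HFC (log2) for the named genes, 1 point per week and a bar at the mean with its SE (5 pairs). The points of each gene fall on 1 side of 0, and the mean differences run from -2.16 (Myom2) to 1.88 (Pon1).

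Chemokines were mostly higher on HF75, and most strongly at week 3. Of 28 chemokines and receptors tested, 20 were higher and 8 lower on average. In 5 of 5 pairs 8 were higher and 2 lower, against 1.84% and 1.79% of all probes. An unadjusted p under 0.05 was reached by 4 higher and 2 lower, against 0.685% and 1.32% of all probes. The list's median difference was 0.55, from 1.90 at week 3 to 0.56 at week 6 and 0.16, 0.00 and 0.06 at weeks 9, 15 and 18. Without week 3 the median was 0.23, and 9 of 28 (32.1%) were higher in 4 of 4 pairs and 2 (7.14%) lower, against 5.96% and 5.15% of all probes. With week 12 added the median was -0.06.

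Cxcl12, which holds leukocytes and progenitors in tissue, was 4.90, 5.08, 4.84, 5.82 and 5.54 on HF75 and 3.33, 3.77, 4.76, 4.83 and 5.16 on HFC, a difference of 0.86 ± 0.30 (SE, limma p = 0.0229). Without week 3 its difference was 0.69 (limma p = 0.0705). Ccl3, a macrophage chemokine, was 1.94, 2.20, 5.04, 4.97 and 3.75 on HF75 and -4.61, 1.69, 3.93, 4.02 and 2.53 on HFC. Its difference of 2.07 (limma p = 0.0453) became 0.95 without week 3 (limma p = 0.0123). Cxcl13, which draws B cells, was higher by 1.52 (limma p = 0.0257), and by 1.5 without week 3 (limma p = 0.0613). Several more were higher in 5 of 5 pairs without reaching an unadjusted p under 0.05: Ccl4 (1.89, and 0.43 without week 3), Ccl2 (0.91, limma p = 0.0553, and 0.48 without week 3), Ccl5 (0.85 and 0.43), Cxcl9 (0.82 and 0.42) and Cxcl2, the mouse neutrophil chemokine, at 2.45 (limma p = 0.0891). Cxcl2 was -8.10 on HFC at week 3 and 0.93 to 2.68 on the other HFC arrays, and without week 3 its difference was 0.78 (limma p = 0.0249). Adipoq, Npr3, Bmp3, the chemokines of this paragraph other than Cxcl12, and below Il6, Tnf, Il1b, Birc5, Cdk1, Rrm2, Ube2c and Pcna are outside the naming rule and were chosen after their values were seen.

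The genes of the list that were lower in every pair were a decoy receptor and a chemokine. Ackr4, a decoy receptor that removes CCL19 and CCL21, was -6.14, -3.93, -3.61, -6.40 and -5.22 on HF75 and -1.68, -1.57, -2.58, -3.33 and -4.51 on HFC. It was lower by -2.33 ± 0.55 (limma p = 0.00351), and was well above background on 2 of 5 HF75 arrays. Without week 3 its difference was -1.79 (limma p = 0.00753). Cxcl14, a chemokine of epithelium and fat, was lower by -0.75 ± 0.27 (limma p = 0.0246), and by -0.83 without week 3 (limma p = 0.0307).

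Other inflammatory mediators followed the week 3 pair. Of 18 tested, 14 were higher on average and the median was 0.80, but it was -0.03 without week 3. The mean differences without week 3 were -0.30 for Il6, 0.66 for Tnf and -0.15 for Il1b. At that week the difference was 10.27 for Il6, 7.31 for Tnf and 5.05 for Il1b, and Il6 was -5.55 on the HFC array. The low immediate early level of that array moved with these values, and its part in them was not tested. Immediate early genes had the same shape, with 18 of 19 higher, medians of 2.31, -0.49, -0.10, 0.37 and 0.16 by week, none at an unadjusted p under 0.05, and a median of -0.005 without week 3. Of the inflammatory mediators, Tlr2 and Orm1 had an unadjusted p under 0.05. Tlr2, a sensor of bacterial lipoproteins, was at 0.77 (limma p = 0.0352), and at 0.58 without week 3 (limma p = 0.104). For Orm1, an acute phase protein made by fat and liver, the difference without week 3 was -0.69 (limma p = 0.056). Orm1 was 0.89, -3.22, -1.74, -3.50 and -0.32 on HF75 and 2.34, -2.07, -1.49, -2.53 and 0.05 on HFC, lower in every pair by -0.84 (limma p = 0.0184).

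Genes of cell division were mostly lower on HF75. Of 24 tested, 19 were lower and 5 higher on average, with a median of -0.50. An unadjusted p under 0.05 was found for 4, all lower, against 1.32% of all probes. Aurkb, a mitotic kinase, was lower by -1.23 ± 0.40 (SE, limma p = 0.0162), Cdk1, which drives entry into mitosis, by -1.11 (limma p = 0.0361), and Ccna2, a cyclin of S and G2 phase, by -0.72 (limma p = 0.0313). Ccnb2, a mitotic cyclin, was -0.74, -0.38, 0.25, -0.55 and -1.58 on HF75 and 0.18, -0.09, 0.71, 0.34 and -0.82 on HFC, and was lower in every pair by -0.66 ± 0.24 (limma p = 0.0268). Pcna, the clamp of DNA replication, went the other way at 0.47 in 5 of 5 pairs (limma p = 0.101). Aurkb, Birc5, Ccnb2, Rrm2 and Ube2c, 5 genes in all, were lower in each pair, against 1.79% of all probes. Without week 3 the list median was -0.40, and 7 of 24 (29.2%) were lower in 4 of 4 pairs against 5.15% of all probes.

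Collagens were lower on HF75 for 16 of 17 genes, with a median of -0.51. An unadjusted p under 0.05 was found for 3, all lower, against 1.32% of all probes. Col16a1, a collagen that links fibrils, was 0.87, 3.03, 1.69, 1.43 and 0.88 on HF75 and 1.68, 3.54, 2.46, 1.94 and 1.44 on HFC, and was lower in every pair by -0.63 ± 0.23 (SE, limma p = 0.0255). Col14a1, another collagen of this class, was lower in every pair by -0.89 ± 0.34 (limma p = 0.0314), and Col6a2, a chain of the microfibril collagen VI, by -0.84 on average (limma p = 0.0415). The list was furthest down at week 15, with a median of -1.18, the week in which 24.6% of all probes were at least 2-fold below HFC. At week 6 it was 0.16. Under normexp background its median relative to that of all probes was -0.18. Matrix proteins and proteases had a median of -0.29, with 17 of 27 lower and none at an unadjusted p under 0.05.

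Of 11 genes of fatty acid uptake 7 were higher and 4 lower on average, with a median of 0.35. Cd36, the fatty acid transporter, was 5.66, 4.85, 5.90, 6.43 and 5.56 on HF75 and 5.44, 3.66, 5.47, 5.69 and 5.42 on HFC, higher in every pair with a difference of 0.54 (limma p = 0.0747). Fabp5, a fatty acid binding protein, differed by 0.69 ± 0.27 (SE, limma p = 0.0376), and Gpihbp1, which carries lipoprotein lipase across the endothelium, by 0.73 (limma p = 0.0606). Pnpla2, the triglyceride lipase of fat cells, was higher by 0.71 (limma p = 0.0488), the only one of 15 genes of lipolysis and the lipid droplet with an unadjusted p under 0.05. De novo lipogenesis, with a median of -0.10 over 20 genes, triglyceride synthesis, with 0.07 over 10, and fatty acid oxidation, with 0.10 over 18, had no member with an unadjusted p under 0.05. The same held for the respiratory chain (0.15 over 20) and branched chain amino acid breakdown (0.04 over 17).

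The mitochondrial lists were lowest at week 3, at -0.39 for fatty acid oxidation and -0.71 for the respiratory chain. With all pairs, 0 of 18 and 2 of 20 genes were higher in 5 of 5, against 1.84% of all probes. Without week 3 the list medians were 0.26 and 0.29. Then 7 of 18 (38.9%) and 7 of 20 (35%) genes were higher in 4 of 4 pairs and none lower, against 5.96% and 5.15% of all probes. The pair left out is the one in which these lists were lowest, which by itself raises the 4 of 4 counts. With week 12 added the medians were 0.52 for fatty acid oxidation, 0.42 for the respiratory chain, 0.60 for branched chain amino acid breakdown, 0.64 for triglyceride synthesis and 0.35 for de novo lipogenesis, which turned its sign.

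Lists with medians over the 5 weeks close to that of all probes were adipogenic transcription factors (-0.05 over 12 genes), the circadian clock (-0.01 over 16), heat shock (0.06 over 9), endoplasmic reticulum stress (0.13 over 15), complement (0.05 over 11), antigen presentation (0.08 over 12) and thermogenic genes (-0.17 over 6). None of their members had an unadjusted p under 0.05. Single weeks lay further out: thermogenic genes ran from -0.85 at week 3 to 0.96 at week 15, and endoplasmic reticulum stress was 0.84 at week 15. Complement was -1.42 at week 3, and its median without week 3 was 0.19. The Wnt pathway had a median of -0.23 over 26 genes, with Sfrp5 the only such member.

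Insulin signalling and glucose uptake had a median of -0.01 over 14 genes. Against 1.79% of all probes, 2 of the 14 were lower in 5 of 5 pairs. They were Akt2, the kinase that relays insulin to glucose transport, at -0.67 ± 0.25 (limma p = 0.0317), and Pde3b, by which insulin restrains lipolysis, at -0.58 ± 0.23 (limma p = 0.036). In cholesterol synthesis 17 of 20 genes were lower, with a median of -0.15, and Lss, lanosterol synthase, was lower in every pair by -0.98 (limma p = 0.0419).

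Xenobiotic and stress genes were mostly higher. Of 23 genes of xenobiotic metabolism tested, 17 were higher and 6 lower on average, with a median of 0.21 and of -0.56 at week 15. Only 1 of the 23 had an unadjusted p under 0.05. Some members were detected less often on HF75: Cyp3a11 was well above background on 1 HF75 and 4 HFC arrays, and Cyp2b10 and Ces2c each on 0 and 2. Aox3 went the other way, with 5 and 4, as did the gene described next. Cyp1a1, a cytochrome induced through the aryl hydrocarbon receptor, was -4.68, -5.36, -5.14, -1.13 and -3.07 on HF75 and -5.20, -5.47, -6.62, -3.59 and -3.83 on HFC, with a difference of 1.07 ± 0.38 (SE, limma p = 0.024). It was near background, being well above it on 4 of 5 HF75 and 3 of 5 HFC arrays, and its diets overlapped. Cyp4b1, a cytochrome that oxidises foreign compounds, differed by 0.80 (limma p = 0.0517), and Abcb1a, a drug efflux pump, by 0.71 (limma p = 0.0602). Hmox1, heme oxygenase, was 1.95, 3.44, 3.28, 6.34 and 3.71 on HF75 and 1.99, 1.99, 2.37, 4.497 and -0.62 on HFC, level at week 3 and higher at the other weeks by 1.70 ± 0.58 overall (limma p = 0.0211). The 20 genes of the oxidative stress response had a median of 0.19. Of 12 glucocorticoid responsive genes, Cdkn1a, a brake on the cell cycle (0.87, limma p = 0.0328), and Sgk1, a kinase of salt transport (0.64, limma p = 0.0445), were higher in 5 of 5 pairs, but the list median was -0.08. In 5 of 5 pairs 2 of the list were higher and 1 lower, against 1.84% and 1.79% of all probes.

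**Figure D4:**
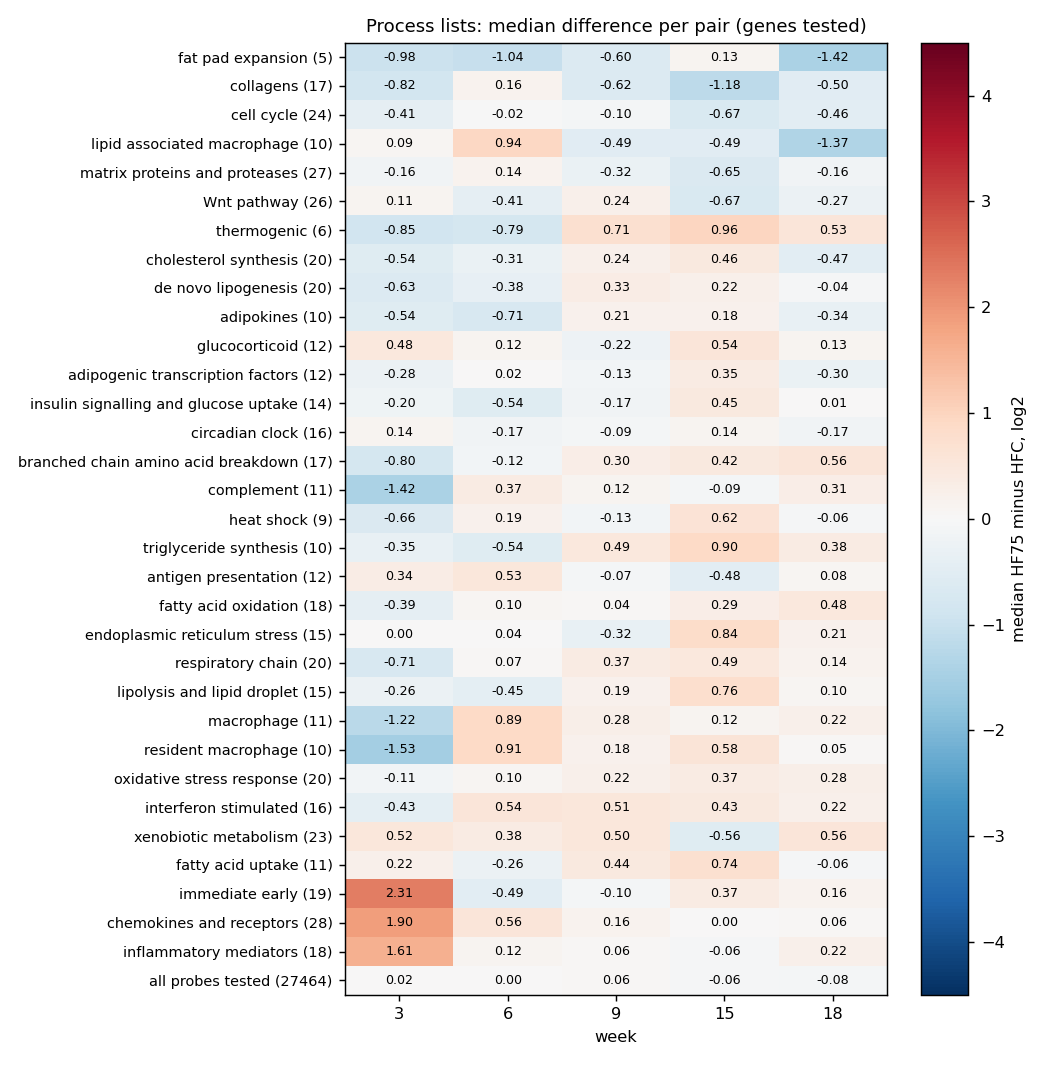
Median difference HF75 minus HFC (log2) of the process lists at each of the 5 weeks, with the number of genes tested. The chemokine, inflammatory and immediate early lists stand out at week 3, and the collagens are lowest at week 15.

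Markers of other cell types and tissues differed between the arrays of a pair, and their part in the values above was not tested. All 12 mesothelial markers were lower on HF75 on average, with a median of -1.06, and the summed level was 1.36 to 27.6 on HF75 and 9.75 to 37.7 on HFC. This list was -4.42 at week 3 and 1.09 at week 18, and without week 3 its median was -0.40, with 1 marker higher. Krt7, a keratin of simple epithelium and mesothelium, was lower by -2.34 (limma p = 0.00626), and Msln, mesothelin, was -4.47 at week 3. Epididymis markers, of which 5 of 13 were tested, swung from 3.92 at week 3 to -3.13 at week 15, with summed levels of 0.0608 to 13.6 on HF75 and 0.0722 to 12.4 on HFC. Without week 3 the median of the epididymis markers was -1.08. Testis markers were -4.32 at week 15, where the HFC array had 9 of 10 well above background. Of 9 neutrophil markers 5 were higher and 4 lower, with Mpo, myeloperoxidase, at -0.84 (limma p = 0.0129) and Ngp, a granule protein, at -1.003 (limma p = 0.0289). Blood markers, the globins among them, had a median of 0.50 over 4 genes and 1.53 at week 15. All 6 visceral depot markers tested were lower on HF75 on average, with a median of -0.95 and of -1.69 at week 6. In 5 of 5 pairs 2 of them were lower, against 1.79% of all probes. On the HF75 array of week 6, 1 of 8 visceral and 6 of 8 subcutaneous depot markers were well above background. On the HFC array of that week both counts were 6. Mesothelial markers well above background there were 5 of 12 on HF75 and 7 of 12 on HFC.

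**Figure D5:**
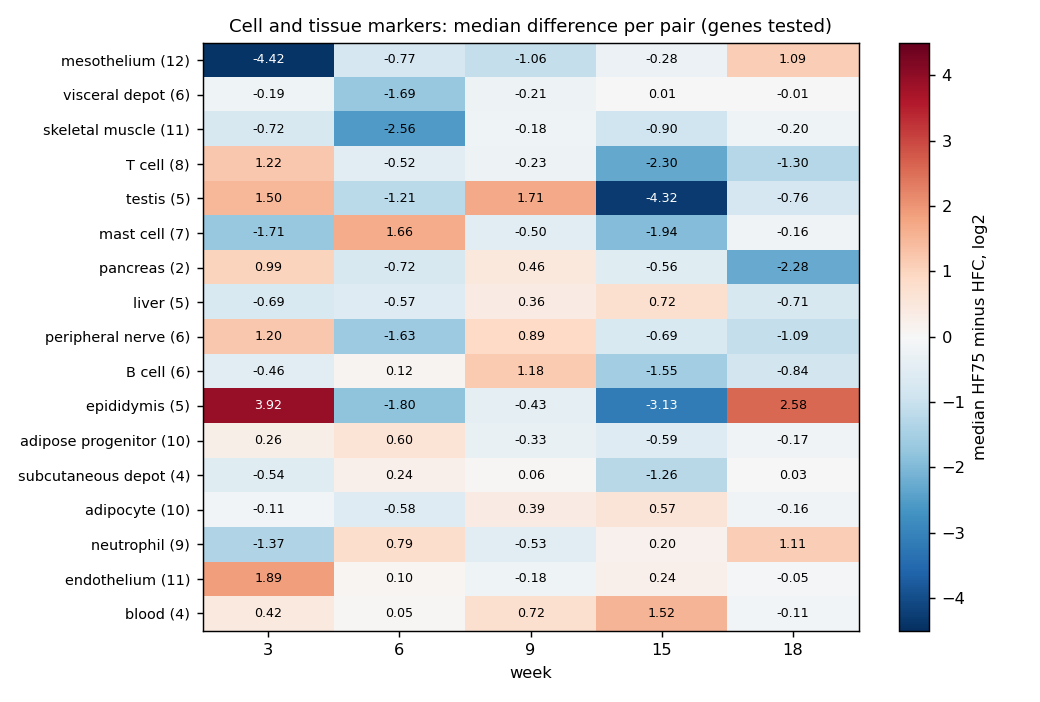
Median difference HF75 minus HFC (log2) of the marker lists of cell types and tissues at each of the 5 weeks. Mesothelial markers reach -4.42 at week 3, and epididymis markers change sign between weeks.

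The doses were compared with each other without the HFC arrays. Against HF5, 26710 probes were tested and 0 (0%) reached an adjusted limma p under 0.05, with a smallest adjusted p of 0.985 and 1026 probes at an unadjusted p under 0.05 (414 higher and 612 lower on HF75). Against HF20, 27559 probes were tested, again 0 (0%) passed, the smallest adjusted p was 0.519, and 2639 probes had an unadjusted p under 0.05 (1076 higher and 1563 lower). The HF20 arrays of weeks 6 and 18 are among the 7 with low immediate early genes, and no HF5 array is. Tissue markers also differed between HF20 and HF75 at week 6. On HF20 the median levels were -0.86 for mesothelium, 1.405 for epididymis and 3.64 for testis markers. On HF75 they were -6.97, -8.135 and -4.22. Their part in the dose comparison was not tested.

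Several genes that differed from HFC had the same sign at 5 µg and not at 20 µg. The 3 doses share the HFC arrays, so their values stand side by side only. The mean level of Lep was -0.44 on LFC, 0.64 on HFC, -0.27 on HF5, 1.84 on HF20 and -0.73 on HF75, with SDs over the 5 weeks of 1.78 to 2.28. HF75 minus HF20 was -2.58 (limma p = 0.0783) and HF75 minus HF5 was -0.47 (limma p = 0.63), both with adjusted p of 0.52 or more. At week 6 Lep was 4.56 on HF20 and -4.16 on HF75. HF75 was also below HF20 at weeks 15 and 18, and above it at weeks 3 and 9. Rsad2 minus HFC was 0.36 on HF5, -1.15 on HF20 and 1.104 on HF75, and Ccl3 was 1.24, -1.56 and 2.07. Cyp1a1 was 1.01, -1.24 and 1.07. Krt14 differed little from HFC on HF5 (0.03) and was -0.97 on HF20 and -1.83 on HF75. For Ncan the values were -1.47, -0.92 and -2.07, and for Ackr4 -1.42, -1.03 and -2.33, so all 3 doses lay below HFC on average.

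Krt14 was also among the genes with the smallest p against HF5. Its mean was -4.03 ± 1.22 on HF75 and -2.18 ± 1.49 on HF5 (SD, n = 5). The difference was -1.85 ± 0.41 (SE, limma p = 0.00216). Others by the same rule were Pdcd1, an inhibitory receptor of T cells (-2.43 ± 0.41, limma p = 0.000385), and Fosl2, a subunit of AP-1 (-2.35 ± 0.45, limma p = 0.000852). The genes higher than on HF5 were Ddx3y, an RNA helicase on the Y chromosome (1.497 ± 0.32), Sft2d3 (1.53 ± 0.33), and Gbp4, a GTPase induced by interferon (1.32 ± 0.30). All had an adjusted p of 0.985. Against HF20, Slc7a4 (-2.02 ± 0.27, limma p = 0.000103), Igh-6, an immunoglobulin heavy chain (-2.03 ± 0.36), and Ryr1, the calcium release channel of muscle (-1.61 ± 0.33), were lower, and Bptf, a chromatin remodelling factor (1.26 ± 0.27), Ddx3y (1.52 ± 0.34) and Lao1, an amino acid oxidase (1.88 ± 0.42), were higher. Their adjusted limma p was 0.519.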

How the data were processed

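RNA of epididymal adipose tissue was labelled with Cy3 and hybridised to Agilent arrays with 45220 spots (43803 without controls) for 40628 probes. The authors deposited scanner files of intensity values that Feature Extraction 10.5.1.1, per the file headers (9.1 per the labels), had background-subtracted and detrended, with annotation on mm9, and a table of log2 values relative to the LFC array at each time point, normalised in GeneSpring GX. The series text names 3 biological replicates per diet, while 1 array per diet and week was analysed here. With week as a block, p-values therefore measure how the paired difference varied from week to week, not the spread between mice of a week.

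The processed signal was log2 transformed, the 75th percentile of the array was subtracted, outlier spots were set to missing, and spots of a probe were averaged. Probes well above background on 5 or more of 10 arrays were tested, with at least 3 complete pairs. HF75 was tested against HFC, HF5 and HF20 by limma 3.58.1 (R 4.3.3, with the package data.table, version 1.17.8) with week as a block, two-sided, with Benjamini-Hochberg adjustment and a threshold of 0.05. The script was tested on simulated data. The pairing comes from the labels' week: residuals of arrays of the same week correlated at 0.059 to 0.362, those of different weeks at -0.409 to 0.241. Week 15 had the lowest of the same-week values, 0.059. The HF75 array of week 15 correlated best with the HFC array of week 18, and the other HF75 arrays with the HFC array of their own week. The t-test of the study at each time point needs replicates, so the methods' t-test here is a paired test over weeks.

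Members and gene lists were chosen with earlier results of these data known. Per direction, with fewer than 3 probes past the threshold, the 8 with the smallest p among gene symbols with the same sign in 5 of 5 pairs and well above background on 8 or more of 10 arrays were named, up to 3 bounds per direction (brighter diet measured on at least 4 of 5 arrays, the other on none), up to 3 members per list by moderated t (Lep counts under several), and 3 per direction for each dose comparison. A list is represented by the brightest tested probe per gene and is described by counts and its median. A bound sets the bright diet's mean against that of the dim diet, where each array contributes its own signal or, if larger, its lowest signal among probes well above background. Names came from the files, with 28136 of 40628 probes (69.3%) matched by accession to RefSeq names of GRCm38.p6. Figures were drawn with matplotlib 3.10.9 in Python 3.11.15.

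Alternatives were week 12 added, no block, a single fit over 5 diets, normexp background (offset 50), quantile or median scaling, a stricter or no filter, outlier spots kept, array weights, the methods' t-test, the authors' log2 values and leaving out each week.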

Additional observations from a re-analysis of the deposited data

Results flagged for a closer look

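Among 68 genes, each tested for 1 array far from the other 4 of its diet, 13 of 136 groups had such an array. On the HFC array of week 3 they were Fos at 0.72 (others 4.75 to 5.76), Tnf at -6.23 (others 0.90 to 3.11), Il1b at -2.79 (others 1.78 to 2.85), Il6 at -5.55 (others 5.20 to 6.00), Ccl3 at -4.61 (others 1.69 to 4.02), Ccl4 at -3.08 (others 4.35 to 6.85), Cxcl2 at -8.10 (others 0.93 to 2.68) and Pnpla2, a lipase, which was high at 6.05 (others 4.04 to 4.61). On the HF75 array of week 3 Acod1 was -4.42 (others -2.57 to -1.94), Bmp3 was -1.64 (others -3.81 to -3.43) and Ngp was -7.62 (others -4.58 to -3.80). On the HFC array of week 6 Fxyd6 was -0.60 (others -4.24 to -3.64) and Cd36 was 3.66 (others 5.42 to 5.69).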

How the results depend on the processing

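No probe reached an adjusted p under 0.05 in any of the 3 comparisons under the alternatives run (the single fit over 5 diets and the authors' values were used for HF75 against HFC only), and the smallest adjusted p for HF75 against HFC was 0.385, by the methods' t-test, which had 677 probes at an unadjusted p under 0.05. Without the pairing by week as a block, the counts at an unadjusted p under 0.05 were 154 against HFC (27 higher and 127 lower, compared with 551), 551 against HF5 (compared with 1026) and 901 against HF20 (compared with 2639). Against HFC they were 313 in 1 fit over 5 diets, 198 with normexp background, 876 with no filter, and 472 (without week 15) to 794 (without week 3) when a week was left out. The split turned with the scaling, to 340 higher and 182 lower under quantile scaling and 419 higher and 144 lower under median scaling, where the median of all probes was 0.17. Against HF5 the counts were 542 with normexp background, 1542 with array weights and 1725 with week 12 added. Against HF20 they were 1685 with array weights, 1505 without week 6, 1713 without week 15 and 1177 without week 18. The median difference kept its sign under all alternatives for 18 of 49 lists. Of the 68 genes followed, 60 kept their sign under all alternatives and 8 did not. With week 12 added Adipoq was 0.19, Ccl2 -0.30, Cdkn1a -0.20, Fos -0.21, Il1b -0.12 and Il6 -0.47. Leaving out a week gave -0.15 (without week 3) to 1.23 (without week 15) for Il1b and -0.30 (without week 3) to 2.95 (without week 6) for Il6. Adipoq was 0.071 with normexp background, 0.073 with median scaling and -0.26 (without week 9) to 0.25 without week 6. Npr3 was -0.052 with quantile scaling and without week 9, -0.08 without week 6 and -0.10 without week 15, and Pde6h was -0.045 with normexp background. The causes were not tested. With 5 pairs and 1 array per diet and week the number of arrays limits the precision, and dim probes (Sfrp5, Ackr4, Cyp1a1) lie close to background.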

Other observations

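Macrophage markers were lower on HF75 at week 3 and higher at the other weeks, most at week 6. The 11 general macrophage markers had median differences of -1.22, 0.89, 0.28, 0.12 and 0.22 by week, and the 10 resident macrophage markers -1.53, 0.91, 0.18, 0.59 and 0.05. Over the 5 weeks the medians were 0.17 and 0.18, and 0 of 11 and 0 of 10 were higher in 5 of 5 pairs. Without week 3, the pair in which both lists were lowest, the medians were 0.51 and 0.66. Then 3 of 11 (27.3%) and 4 of 10 (40%) were higher in 4 of 4 pairs, against 5.96% of all probes. Without week 6 the general list was -0.31. The 10 markers of lipid associated macrophages were lower for 8 genes, with a median of -0.43 and -1.37 at week 18. Endothelial markers were 1.89 at week 3 and between -0.18 and 0.24 at the other weeks, with a median of -0.03 without week 3. Over the 5 weeks none of these lists had a member with an unadjusted limma p under 0.05. Without week 3 there were 1 of 11 general and 2 of 10 resident macrophage markers, all higher, against 151 of 27454 probes higher at that threshold.

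The week 12 pair, used only where week 12 was added as an alternative, had the opposite sign to the mean of the other weeks for several genes. HF75 minus HFC there was 2.23 for Lep, 2.21 for Nnat, 2.22 for Myom2, -2.95 for Rsad2, -6.31 for Ccl2, -7.68 for Ccl3 and -11.87 for Il6. Mest, at -2.39, had the same sign as its mean. The HF75 array of that week is one of the 7 with low immediate early genes, with a median of 0.16, and the HFC array of that week has the raised dim probes.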
